A study of Rattus norvegicus with 3 samples.

Results

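The Wnt pathway genes described here are secreted Wnt ligands, their receptors, the proteins that block or amplify them outside the cell, and the feedback and transcription factor genes at the end of the pathway. They were found by gene symbol: symbols starting with Wnt, Fzd, Sfrp, Dkk, Rspo or Lgr and a number, and 15 genes listed one by one, of which 11 had a probe set. The rule gave 42 of the 14217 genes that had a probe set (the set of oligonucleotides that reads 1 transcript) with exactly 1 symbol. Ror1, Ror2, Notum and Rnf43 were on the list without such a probe set and are not analysed here. RNA came from 3 tissues of male wild-type Sprague Dawley rats aged 9 weeks, with 1 array for each tissue. PICT was connective tissue around a titanium alloy implant that was set into the socket when an upper first molar was extracted at 5 weeks of age, and it was taken 4 weeks later. OMCT was oral mucosal connective tissue from the place of an upper first molar extracted 4 weeks before, with no implant there. PCT was periodontal connective tissue at an upper first molar that had not been extracted. All pieces were cut out by laser microdissection, and how many animals were pooled for an array is not stated. The design text writes mice once for PCT, while every sample label gives Rattus norvegicus.

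Wnt ligands are lipid-modified glycoproteins that bind Frizzled receptors and the co-receptors Lrp5 and Lrp6, which stops the destruction of beta-catenin and lets it act with Tcf and Lef factors on target genes. Secreted Frizzled-related proteins and Wif1 bind the ligands, and Dickkopf proteins such as Dkk1 act at the co-receptors. R-spondins acting through Lgr receptors protect Frizzled from removal by the ubiquitin ligases Znrf3 and Rnf43. In oral tissues the pathway is known for its part in tooth development, in bone formation and in the upkeep of epithelial basal cells.

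With 1 array per tissue there was no replicate check, no test between tissues and no SD between animals, and the number of arrays limits the precision. The median intensity as deposited was 56.5 in PICT, 57.4 in OMCT and 34.3 in PCT, so each array was scaled to a common median of 48.1, and intensities below are these scaled values unless "as deposited" is written. Differences are log2(scaled intensity + 8.78), tissue minus tissue, which understates the difference of dim genes, and a gene is called higher or lower at a log2 difference of at least 1 (2-fold) when the brighter array lay at or above its median probe set. The SD of such a difference between probe sets of the same gene was 0.49 for PICT minus PCT, 0.47 for PICT minus OMCT and 0.48 for OMCT minus PCT. The 9 hybridisation controls, added in equal amounts, differed by a median of 0.21, -0.08 and 0.30 as deposited, in the same order of comparisons, and by -0.51, -0.06 and -0.44 after scaling. The ratio of 3' to 5' signal of Hk1, which grows as RNA is shortened, was 1.58 in PICT, 1.97 in OMCT and 2.80 in PCT. Fibroblast genes were present on all arrays: Col1a1 had an intensity of 4726 in PICT, 6860 in OMCT and 9328 in PCT, and of 12 such markers Mfap5 in OMCT alone did not exceed the highest negative control. Epithelial RNA was present too, with Krt5 at 6780 in PICT, 7200 in OMCT and 13415 in PCT. In such mixed tissue fewer cells of a type and less RNA per cell cannot be told apart.

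Across the 3 tissues the implant tissue was most often the lowest. Above the mean level of the median gene stood 18 members, and 13 of these were lowest in PICT, 3 in OMCT and 2 in PCT, against 38.2%, 35.5% and 26.4% of the 7108 genes at such levels. None of the 18 was highest in PICT, where 25.0% of genes were. As deposited, without scaling, PICT was lowest for 9 of 18 members and 10.4% of genes, and highest for 1 member and 42.6% of genes. Over all 42 members 23 were lowest in PICT and 5 highest: Wnt1, Wnt2, Wnt2b, Wnt8b and Znrf3. In all, 14 members passed the rule of size in at least 1 comparison and 28 in none.

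**Figure D1:**
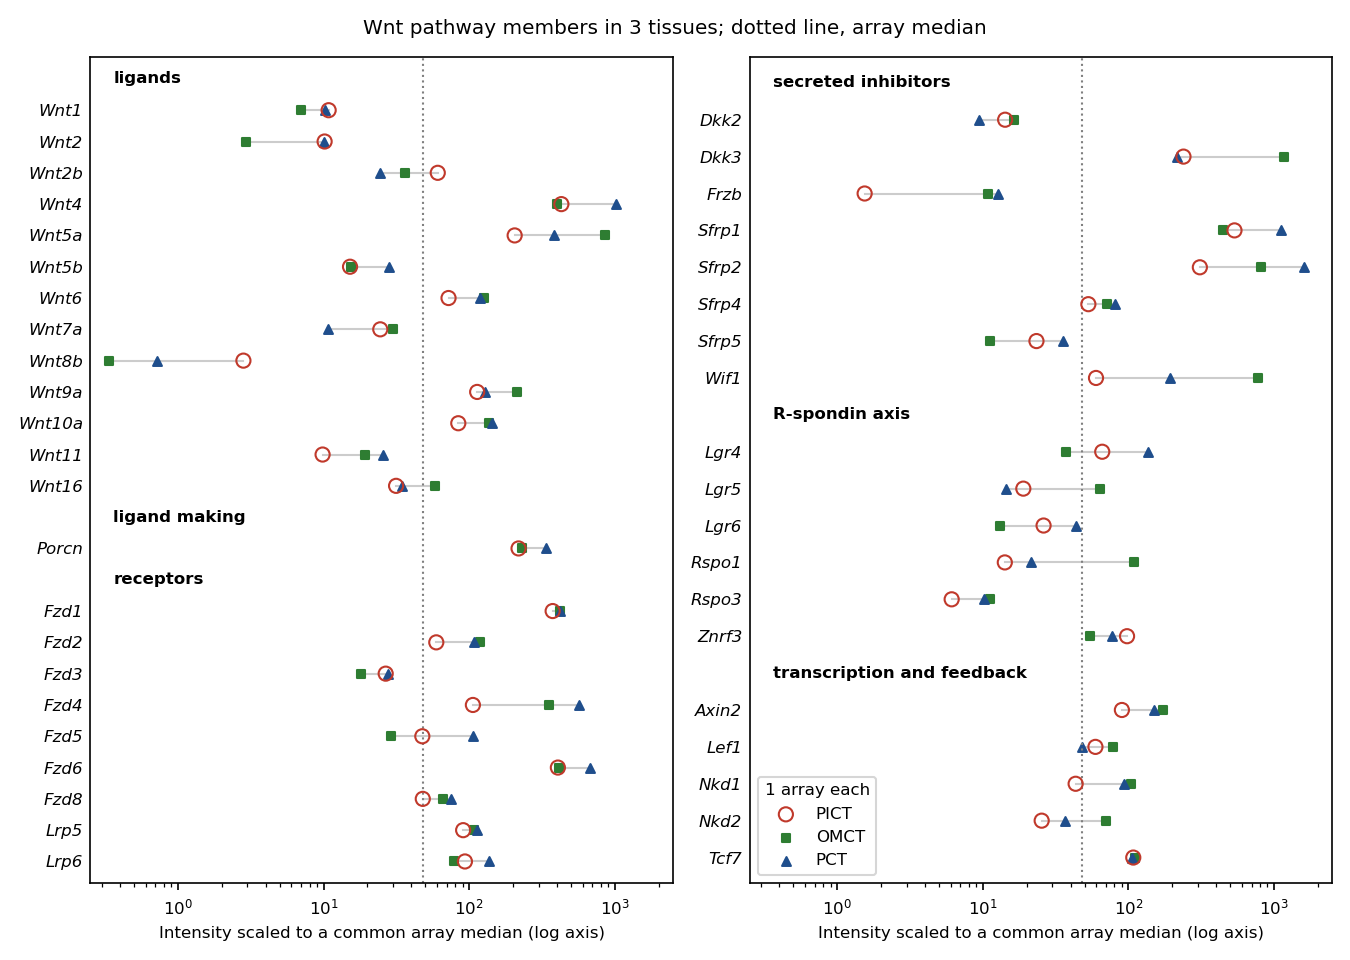
Scaled intensity (log axis) of all 42 members in PICT (open circles), OMCT (squares) and PCT (triangles), 1 array each, grouped by role; the dotted line is the common array median of 48.1. Wif1, Dkk3, Rspo1 and Wnt5a stand far to the right in OMCT, and Wnt4 and Sfrp1 in PCT.

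PICT was set against OMCT to compare a socket that received an implant with one that healed without it. Lower in the implant tissue were Wif1, Dkk3 and Sfrp2 of 8 secreted inhibitors, the ligand Wnt5a, the receptor Fzd4, Rspo1 and Lgr5 of the R-spondin axis, and the feedback genes Nkd1 and Nkd2. Of 42 members 9 were lower in PICT (21.4%) and 0 higher, where over all genes 4.38% were lower and 4.04% higher. The median difference of all members was -0.28, and that of all genes -0.04. As deposited the same 9 members were lower and 0 higher, with differences from -1.17 for Nkd1 to -3.57 for Wif1.

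The widest difference was that of Wif1 (Wnt inhibitory factor 1, which binds Wnt proteins outside the cell). Its intensity was 59.9 in PICT, 775 in OMCT and 193 in PCT. The log2 difference of PICT minus OMCT was -3.51, 11.4-fold lower in PICT, and Wif1 lay at percentile 54.7 of the PICT array against 96.1 of the OMCT array. Dkk3, a Dickkopf family glycoprotein that does not block the co-receptors as Dkk1 does, had an intensity of 239 in PICT, 1161 in OMCT and 217 in PCT. It was 4.73-fold lower in PICT than in OMCT, a difference of -2.24, and its PICT and PCT values lay close together. Sfrp2 (secreted Frizzled-related protein 2) stood at 309 in PICT, 808 in OMCT and 1598 in PCT, with a PICT minus OMCT difference of -1.36. The other 5 inhibitors did not pass: Sfrp1 differed by 0.27, Sfrp4 by -0.36, Sfrp5 by 0.68, Dkk2 by -0.13 and Frzb by -0.93. Frzb had an intensity of 1.54 in PICT, not above the highest negative control there (7.12), so the size of that difference is not exact.

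Among ligands, Wnt5a, which mostly signals without beta-catenin, passed alone of 13. It had an intensity of 205 in PICT, 853 in OMCT and 382 in PCT, a PICT minus OMCT difference of -2.01 (4.03-fold lower in PICT). OMCT was the high tissue and PICT the low one. The differences of the other ligands ran from -0.85 for Wnt9a (113 in PICT, 211.5 in OMCT, 129 in PCT) to 0.69 for Wnt2. Wnt2 was dim, with 10.2 in PICT and 2.92 in OMCT, where it did not exceed the negative control.

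Of 9 receptors Fzd4, the Frizzled that also binds norrin in vessel growth, was lower in PICT. Its intensity was 106 in PICT, 355 in OMCT and 566 in PCT, with a PICT minus OMCT difference of -1.67. The differences of the other 8 receptors lay between -0.89 for Fzd2 and 0.58 for Fzd5, under 2-fold.

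On the R-spondin axis the ligand Rspo1 and the receptor Lgr5 were lower in PICT. Rspo1 had an intensity of 14.15 in PICT, 109.8 in OMCT and 21.35 in PCT, a PICT minus OMCT difference of -2.37 (5.17-fold lower in PICT). Lgr5, which marks stem cells of several epithelia, stood at 19.0 in PICT, 64.1 in OMCT and 14.4 in PCT, a difference of -1.39. Both lay above the median probe set in OMCT alone, and were dim elsewhere. Rspo1 lay at percentile 27.2 in PICT, 68.2 in OMCT and 34.3 in PCT, and Lgr5 at 32.2, 56.2 and 27.4. The relatives Lgr4 (0.69), Lgr6 (0.67) and Znrf3 (0.76) had differences above 0 that stayed under 2-fold.

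The feedback inhibitors Nkd1 and Nkd2, which bind Dishevelled inside the cell, were lower in PICT as well. Nkd1 had an intensity of 43.4 in PICT, 104.9 in OMCT and 92.5 in PCT, a PICT minus OMCT difference of -1.12. Nkd2 had 25.35 in PICT, 70.2 in OMCT and 36.7 in PCT, a difference of -1.21. Axin2, a scaffold of the beta-catenin destruction complex and itself a widely used target gene of the pathway, stood at 90.1 in PICT, 173 in OMCT and 151 in PCT, and its difference of -0.88 did not reach 2-fold. The transcription factor genes Lef1 (-0.35, by the brighter of its probe sets) and Tcf7 (-0.03) did not pass. All 5 genes of this group were below 0 in PICT minus OMCT, Tcf7 only just, under each of the 5 scalings tried. The 2 arrays had close medians, so this agreement between scalings is a weak check. Of all genes, 7657 of 14217 were below 0 after median scaling. With a pseudocount at the array median, Nkd1 (-0.74), Nkd2 (-0.69) and Lgr5 (-0.74) were under 2-fold.

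Promoter windows are shown for the feedback genes Axin2 and Nkd1, on which Tcf and Lef factors are known to act, and for Wif1 and Wnt5a, an inhibitor and a ligand that were far lower in PICT than in OMCT. They run from 250 bases before the gene's start to 50 after it, come from RefSeq on build GRCr8, and are written 5' to 3'. Capitals mark CTTTGA, a form of the core of the Tcf and Lef site, searched on both strands (reverse complement TCAAAG). Other forms of the site were not searched.
Axin2, chr10:94398535-94398834, + strand: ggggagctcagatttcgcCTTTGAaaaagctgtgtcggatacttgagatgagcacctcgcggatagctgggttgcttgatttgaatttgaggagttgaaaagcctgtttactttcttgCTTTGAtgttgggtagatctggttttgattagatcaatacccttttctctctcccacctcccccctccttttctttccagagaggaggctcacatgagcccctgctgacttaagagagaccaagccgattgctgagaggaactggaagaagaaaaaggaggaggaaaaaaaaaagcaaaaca
Nkd1, chr19:34722797-34723096, - strand: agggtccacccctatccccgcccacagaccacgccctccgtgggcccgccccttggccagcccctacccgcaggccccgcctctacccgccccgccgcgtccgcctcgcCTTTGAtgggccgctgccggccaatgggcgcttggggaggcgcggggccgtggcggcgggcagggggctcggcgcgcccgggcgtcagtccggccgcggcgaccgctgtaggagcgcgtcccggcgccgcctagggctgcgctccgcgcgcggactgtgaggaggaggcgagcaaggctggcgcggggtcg
Wif1, chr7:58433329-58433628, + strand: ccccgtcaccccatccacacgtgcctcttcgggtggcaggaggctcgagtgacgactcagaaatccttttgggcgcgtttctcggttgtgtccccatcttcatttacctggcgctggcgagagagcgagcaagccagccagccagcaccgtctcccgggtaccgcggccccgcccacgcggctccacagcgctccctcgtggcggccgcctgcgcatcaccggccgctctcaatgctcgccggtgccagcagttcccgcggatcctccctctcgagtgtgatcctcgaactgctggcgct
Wnt5a, chr16:3703415-3703714, + strand: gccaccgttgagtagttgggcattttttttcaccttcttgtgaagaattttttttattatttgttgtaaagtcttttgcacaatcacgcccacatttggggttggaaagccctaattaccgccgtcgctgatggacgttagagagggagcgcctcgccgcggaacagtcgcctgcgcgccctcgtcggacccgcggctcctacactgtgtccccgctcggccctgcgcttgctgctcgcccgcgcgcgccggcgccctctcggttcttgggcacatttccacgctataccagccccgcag

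Axin2 held the motif at 232 and at 132 bases before its start, Nkd1 at 141 and Tcf7 at 4, all on the gene's own strand. Of the 42 members 30 had a full window in the RefSeq table, and 3 of them held the motif, against 15.9% of all 27457 windows. The member windows had a median GC content of 65.2%, and all windows 52.3%. The Wif1 and Wnt5a windows held no match, and neither did those of Nkd2 and Lef1, which are not shown. A missing match says only that these letters are not in this stretch.

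PICT was set against PCT to compare tissue around an implant with tissue around a tooth. Fzd4, Sfrp2 and Wif1 were lower in the implant tissue here too, and so were Wnt4, Sfrp1 and Fzd5, while Wnt2b was higher. By the rule of size 6 of 42 members were lower (14.3%) and 1 higher (2.38%), where over all genes 3.94% were lower and 3.64% higher. This comparison depended on scaling: as deposited 2 members were lower and 1 higher, where 0.90% of all genes were lower and 14.1% higher. The median over all genes was -0.10 after scaling and 0.47 as deposited, and that of the members -0.53 and 0.09. Both comparisons use the PICT array, so they are not independent.

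Fzd4 stood at 106 in PICT against 566 in PCT, a difference of -2.32 (5.01-fold lower in PICT), and Sfrp2 had 309 in PICT and 1598 in PCT, a difference of -2.34. As deposited each differed by -1.63, and both were called under every alternative tried. After median scaling vessel markers moved the same way: of 8 endothelial markers 5 were lower in PICT than in PCT and 5 lower than in OMCT. The alternatives were not counted for these markers. Their summed intensity was 1832 in PICT, 3810.3 in OMCT and 3401 in PCT. Lyve1, 1 of the 5 lower than in OMCT, gave 755 of the OMCT sum, with 91.1 in PICT and 81.2 in PCT. The order of the OMCT and PCT sums therefore leans on this gene. The part of vessel cells in the Fzd4 values was not tested. Wif1 had 59.9 in PICT and 193 in PCT, a difference of -1.56, and -0.89 as deposited.

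Wnt4, a ligand of epithelia, had an intensity of 429.5 in PICT, 399 in OMCT and 1016 in PCT. The PICT minus PCT difference was -1.23, and -0.51 as deposited. Sfrp1 had 535 in PICT, 443 in OMCT and 1125 in PCT, a difference of -1.06, and Fzd5 had 47.6 in PICT, 28.9 in OMCT and 106.8 in PCT, a difference of -1.03. Both lay just past the rule, and as deposited they differed by -0.35 for Sfrp1 and -0.39 for Fzd5. With a common trimmed mean, or with log2 taken before the medians were subtracted, neither passed. PCT was the high tissue for all 3 genes. Their ranks were also higher there: Wnt4 lay at percentile 91.7 in PICT and 96.9 in PCT, Sfrp1 at 93.7 and 97.4, and Fzd5 at 49.8 and 67.1.

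Wnt2b, a ligand of the beta-catenin branch, was the 1 member higher in PICT. It had an intensity of 60.8 in PICT, 36.0 in OMCT and 24.5 in PCT, a PICT minus PCT difference of 1.07 (1.62 as deposited, and 0.59 with a pseudocount at the median). The co-receptors Lrp5 and Lrp6 had 90.9 and 93.4 in PICT, and 113.7 and 137 in PCT, with differences of -0.30 and -0.51. All 9 receptors were below 0 after median scaling, 8 of 9 with a common trimmed mean, and 4 of 9 as deposited, where 8221 of 14217 genes in all were below 0 after median scaling. Of the members bright enough for the rule, Lgr4 (-0.96), Nkd1 (-0.96) and Wnt5a (-0.87) came closest without passing it. Frzb, at -1.05, was too dim for it, and Wnt11, at -0.89, was both dim and under 2-fold. Dkk3 (0.13), Lgr5 (0.26) and Rspo1 (-0.39), which set PICT apart from OMCT, did not pass between PICT and PCT.

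**Figure D2:**
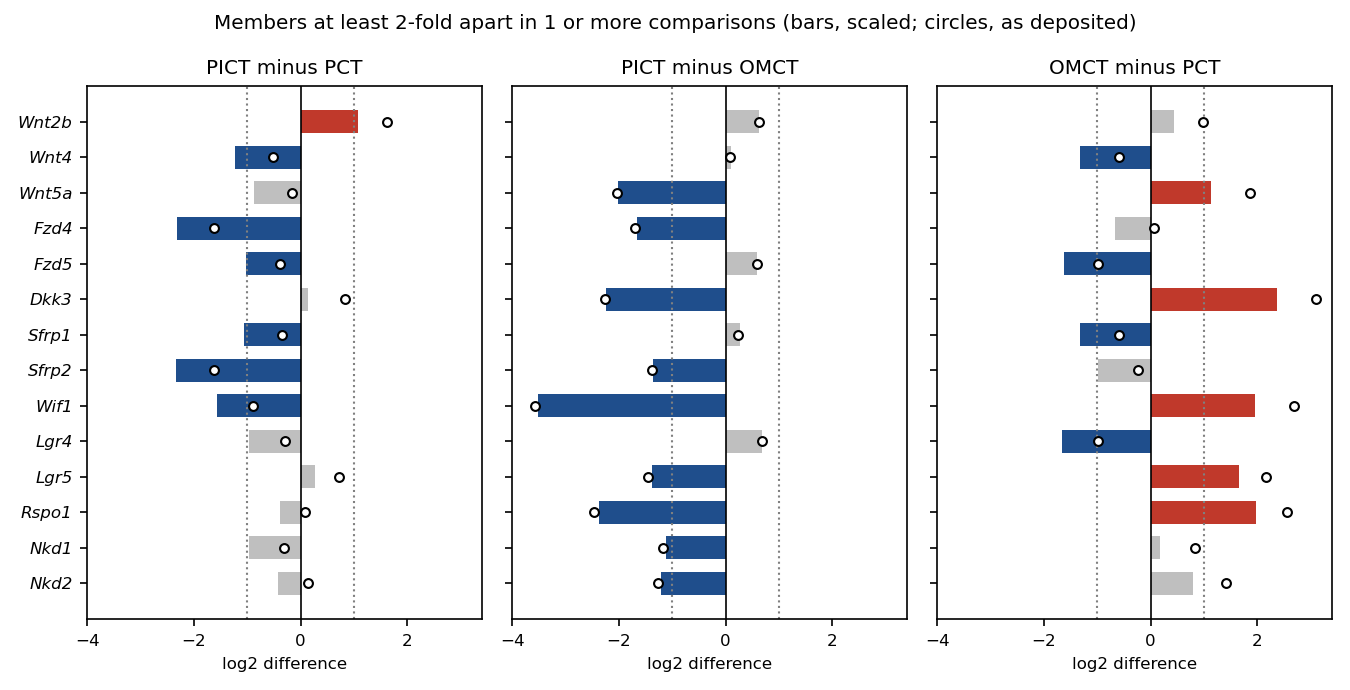
Log2 differences of the 14 members past the rule of size in at least 1 comparison. Bars are scaled values (red higher, blue lower, grey not past the rule), open circles the same difference as deposited, and dotted lines mark 2-fold. Circles and bar ends fall together for PICT minus OMCT and lie apart wherever PCT is compared.

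OMCT was set against PCT to compare a healed extraction site with tissue around a tooth. Dkk3, Rspo1, Wif1, Lgr5 and Wnt5a were higher at the healed site, and Lgr4, Fzd5, Wnt4 and Sfrp1 lower. These are 5 of 42 members higher (11.9%) and 4 lower (9.52%), beside 5.3% and 5.41% of all genes. As deposited 9 members were higher and 0 lower, beside 17.6% and 2.10% of all genes.

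The higher members differed by 2.37 for Dkk3 (5.19-fold), 1.98 for Rspo1, 1.96 for Wif1, 1.65 for Lgr5 and 1.14 for Wnt5a, and each was called as deposited too. With a pseudocount at the median Lgr5 differed by 0.84, under the rule. Wif1 was thus lower in PICT and higher in OMCT when each was set against PCT. Lgr4, the broadly expressed R-spondin receptor, had an intensity of 66.1 in PICT, 37.5 in OMCT and 137 in PCT, and OMCT minus PCT was -1.66. Fzd5 differed by -1.62, Wnt4 by -1.33 and Sfrp1 by -1.33. As deposited none of these 4 passed, with Lgr4 at -0.99, Fzd5 at -0.98, Wnt4 at -0.60 and Sfrp1 at -0.59. In this comparison Lgr4 and Lgr5 lay on opposite sides of 0 under every scaling.

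Members with several probe sets allow a partial check. Of the 42 members 26 had 1 probe set and 16 had several. Both Fzd4 probe sets were lower in PICT, the second by -1.88 against PCT and -1.04 against OMCT, and both Sfrp2 probe sets were, the second by -1.98 and -2.30. The highest tissue of Sfrp2 depended on the probe set: OMCT minus PCT was -0.98 in the first and 0.32 in the second. All 3 Nkd1 probe sets were lower in PICT than in OMCT, by -1.12 and -1.41 in the brighter ones. The dimmest was not above the highest negative control in PICT, so its difference has no exact size. All 3 of Sfrp1 were lower in OMCT than in PCT, from -1.20 to -1.53, and against PCT in PICT they ran from -0.65 to -1.06.

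Other genes were less settled. The other 3 Dkk3 probe sets were dim, at most 20.4 on any array, with PICT minus OMCT differences from -0.23 to -0.87, and with the mean over all probe sets Dkk3 differed by -0.89 from OMCT in PICT and by 0.72 in OMCT minus PCT, under the rule. The second Fzd5 probe set had 9.10 in PICT, 38.3 in OMCT and 38.9 in PCT, so it put OMCT level with PCT where the first put it lowest. Lef1 also differed between its probe sets: the dimmer one had 4.81 in PICT, 34.4 in OMCT and 5.45 in PCT, so that in PICT and PCT it was not above the highest negative control and its differences have no exact size. The brighter one differed by -0.35 in PICT minus OMCT. With the mean over both, Lef1 passed the rule, lower in PICT than in OMCT and higher in OMCT than in PCT. Wnt7a, a ligand of epithelia, differed by 0.77 from PCT in PICT by its brighter probe set and by -1.04 by the other. Wif1, Rspo1, Lgr5, Wnt5a, Wnt4, Wnt2b, Lgr4 and Nkd2 have 1 probe set each, so no other probes check them.

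**Figure D3:**
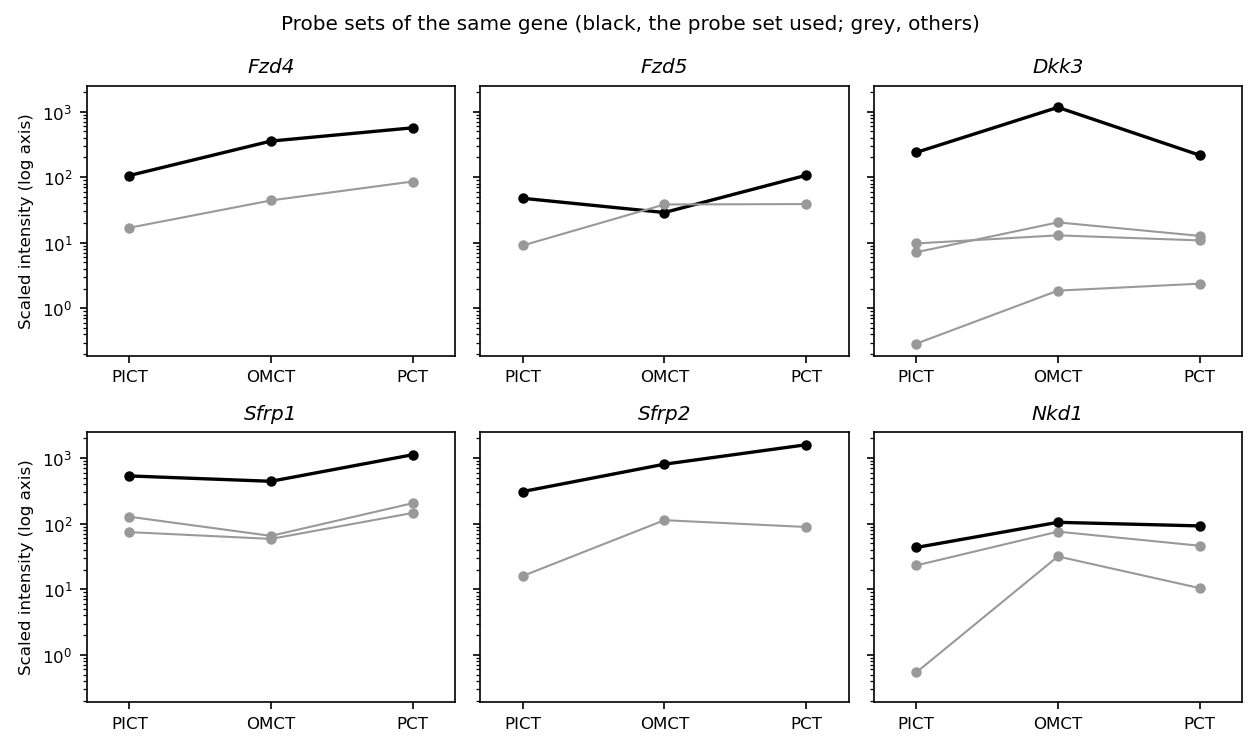
Scaled intensity (log axis) in PICT, OMCT and PCT of every probe set of the 6 members past the rule of size that have several; black is the probe set used, grey the others. The Fzd4, Sfrp2, Nkd1 and Sfrp1 probe sets keep their lowest tissue, while the Fzd5 probe sets disagree on OMCT.

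Lgr6, an R-spondin receptor, and Sfrp5 differed by over 2-fold but were too dim for the rule of size. Lgr6 had an intensity of 26.1 in PICT, 13.1 in OMCT and 43.55 in PCT, with OMCT minus PCT at -1.26, and Sfrp5 had 23.3 in PICT, 11.3 in OMCT and 35.5 in PCT, with OMCT minus PCT at -1.14. Fzd1 had an intensity of 374 in PICT, 423 in OMCT and 418 in PCT, and Fzd6 had 406 in PICT, 411 in OMCT and 671 in PCT. Porcn, the acyltransferase that adds the lipid to Wnt proteins, had 218 in PICT, 232 in OMCT and 336 in PCT, with PICT minus PCT at -0.60. The epithelial ligands Wnt6 (72.1 in PICT, 126.9 in OMCT, 119 in PCT) and Wnt10a (84.1 in PICT, 136.7 in OMCT, 143 in PCT) were lowest in PICT, by -0.75 and -0.65 against OMCT. Tcf7 was level, at 107.9 in PICT, 110.5 in OMCT and 105.0 in PCT. Wnt8b exceeded the highest negative control on no array. Of the 42 members 38 exceeded it on all arrays, and Wnt2, Frzb and Rspo3 each missed it on 1.

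Other genes of the pathway were taken from 4 lists. Their counts, after median scaling, stand beside the shares of all genes past the rule. As deposited, counts for these lists are not given, and comparisons with PCT depended on scaling. In PICT minus OMCT 4.38% of all genes were lower and 4.04% higher. In PICT minus PCT 3.94% were lower and 3.64% higher, and in OMCT minus PCT 5.41% were lower and 5.3% higher. In the intracellular beta-catenin core 29 genes were measured. Against OMCT the implant tissue had 2 of them higher and 1 lower, against PCT 0 higher and 1 lower, and the list medians were -0.03 and -0.34. Ctnnbip1, an inhibitor that keeps beta-catenin from Tcf factors, had an intensity of 1216 in PICT, 335 in OMCT and 1418 in PCT, a PICT minus OMCT difference of 1.83. The kinase gene Gsk3b had 227 in PICT and 525 in PCT, a difference of -1.18.

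Of 17 other surface and extracellular regulators 8 were lower in PICT than in OMCT and 1 higher, and 3 were lower than in PCT and 0 higher. Apcdd1, a membrane inhibitor of Wnt signalling, had 76.4 in PICT, 452 in OMCT and 76.9 in PCT, a PICT minus OMCT difference of -2.43. Cthrc1, a secreted collagen repeat protein that binds Wnt and Frizzled, had 118 in PICT, 457 in OMCT and 57.2 in PCT, a difference of -1.88. Both were highest in OMCT, as Wif1, Dkk3 and Rspo1 were. The heparan sulphate proteoglycan gene Gpc1 had 262 in PICT and 718 in PCT, a difference of -1.43.

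Target genes past the rule of size did not share a direction. Of 24 genes often cited as beta-catenin targets, members left out, PICT had 3 higher and 4 lower than OMCT. The median of the 24 was -0.58, and that of all genes -0.04. Fgf9 was not above the highest negative control in PICT (1.32, against 88.0 in OMCT), at least 12.4-fold lower when the control of 7.12 stands for it. Msx2, a homeobox gene, was higher by 1.78. Against PCT 1 target was higher in PICT and 1 lower. The higher gene was Mmp7 (matrilysin), 71.0 in PICT and not above the negative control in PCT (4.74), at least 8.9-fold higher. The lower gene was Bambi, a decoy receptor of BMP signals that 2 of the lists share, with 104.4 in PICT and 342 in PCT, a difference of -1.63. In OMCT minus PCT 4 targets were higher and 2 lower, among them the CCN protein gene Ccn4 at 2.27 and Msx2 at -2.37, while Bambi stood at -3.25.

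Cell type markers moved with these comparisons, and their part in the Wnt values was not tested. The shares of all genes given with the pathway lists stand beside these counts too. All marker counts, medians and sums here are after median scaling. Comparisons with PCT depended on scaling, and marker counts as deposited are not given. Of 14 markers of differentiated oral epithelium 13 were higher in PICT than in OMCT (median 4.34) and 0 were past the rule against PCT, with a summed intensity of 32311 in PICT, 3838 in OMCT and 45162 in PCT. The 10 keratinocyte markers summed to 31889 in PICT, 26068 in OMCT and 58860 in PCT. In OMCT 7 of them were lower than in PCT, the direction of Wnt4, Sfrp1, Fzd5 and Lgr4. In PICT 4 were lower than in PCT and 0 higher (median -0.98), the direction of Wnt4, Sfrp1 and Fzd5 there. Against OMCT, PICT had 2 higher and 1 lower (median 0.08), and Wnt4, Sfrp1, Fzd5 and Lgr4 did not pass the rule. Of 12 fibroblast markers 5 were lower in PICT than in OMCT and 0 higher, and 6 were higher in OMCT than in PCT and 0 lower, the direction of Wif1, Dkk3, Rspo1, Lgr5 and Wnt5a. Their median was -0.60 in PICT minus OMCT and 1.07 in OMCT minus PCT, and they summed to 23905 in PICT, 37916 in OMCT and 30616 in PCT. Macrophage and periodontal ligament markers leaned that way in these comparisons too. Of 8 macrophage markers 3 were lower in PICT than in OMCT and 0 higher, and 7 were higher in OMCT than in PCT and 0 lower. They summed to 2160 in PICT, 3448 in OMCT and 371 in PCT. In PICT minus PCT, however, 5 macrophage markers were higher and 0 lower (median 1.62). Wif1 was lower there, and Dkk3, Rspo1, Lgr5 and Wnt5a did not pass. Of 6 periodontal ligament markers 3 were lower in PICT than in OMCT and 0 higher, and in OMCT minus PCT 3 were higher and 1 lower. The bone and tooth cell list was split. Of its 8 markers PICT had 1 higher and 2 lower than OMCT, and OMCT had 2 higher and 2 lower than PCT. These markers summed to 627 in PICT, 1323 in OMCT and 1344 in PCT.

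**Figure D4:**
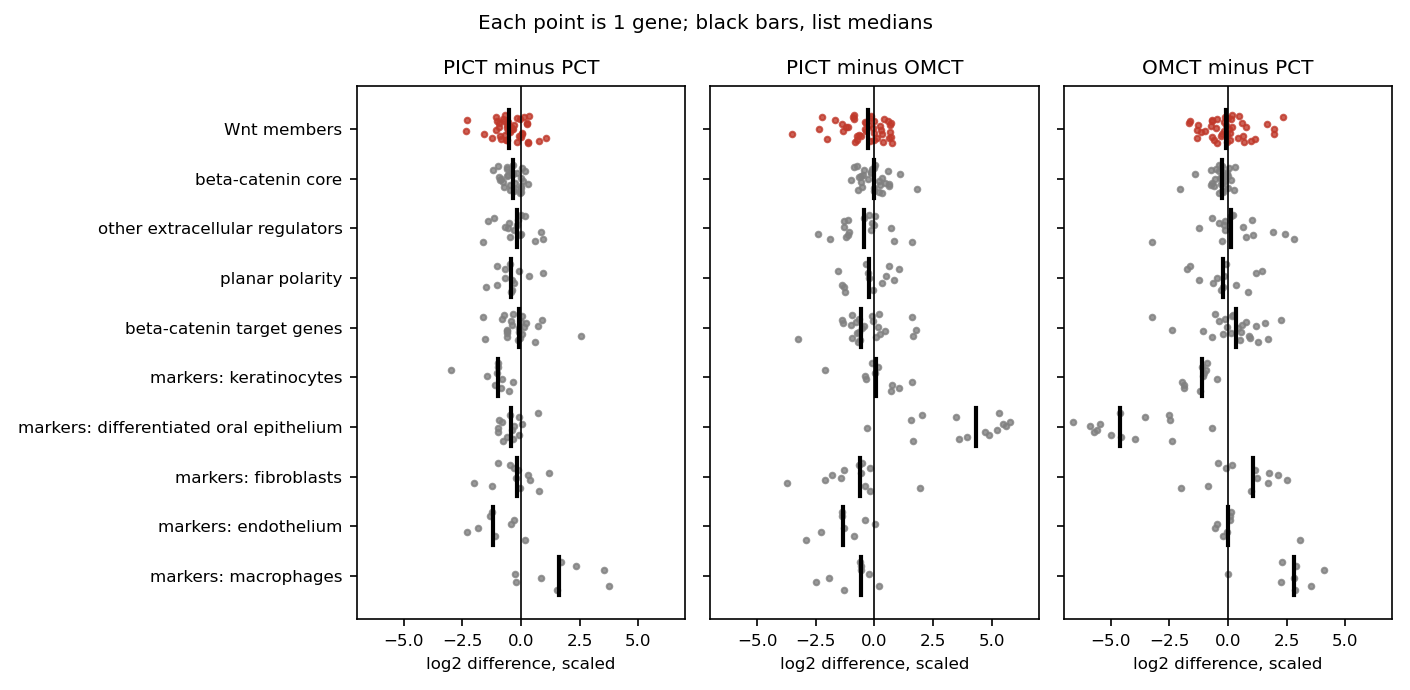
Log2 differences (scaled) of single genes, each a point, in the Wnt members (red), in 4 lists of other pathway genes and in 5 lists of cell type markers (grey); black bars are list medians. The median of differentiated oral epithelium stands at 4.34 in PICT minus OMCT, where that of the Wnt members is -0.28.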

How the data were processed

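Biotin-labelled aRNA was made with the 3'IVT Express kit and hybridised to a rat GeneChip, per the labels' protocols. The deposited values are linear intensities, 1 per probe set (31099 in all). The probe summary and any scaling by the authors are not given in the sources used here. Symbols were taken from GEO's platform annotation of 2016, and all 42 members matched RefSeq (assembly GRCr8) by gene ID with the same symbol. With Python 3.11.15, pandas 2.3.3 and numpy 2.4.6, each array was scaled to a common median, the pseudocount 8.78 (percentile 20 of all values) was added, log2 was taken, and each gene was represented by its brightest probe set. The rule of size, applied across all genes, is at least 2-fold with the brighter array at or above percentile 50. The negative controls were the 3 Trpn probe sets. Members past the rule and the 10 brightest are named with all 3 values; for other pathway genes, at most 5 per comparison, the largest past the rule. The members and lists were chosen with earlier results of these data known. The calling code was tested on simulated data. Alternatives were another scaling, pseudocount, probe set rule or level filter.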

Additional observations from a re-analysis of the deposited data

How the results depend on the processing

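Each tissue has 1 array, so no replicate could be left out. No paired analysis was possible because each tissue has 1 sample. Of 25 calls of named members, the number kept was 17 as deposited, 19 with a pseudocount at the median, 21 with the mean over probe sets, 23 with a trimmed mean or with log2 taken first, 24 with quantile normalization and 25 with a pseudocount of 1, and no called difference changed sign. As deposited, members lower in PICT than in PCT numbered 2 (6 after scaling), and OMCT had 9 higher (5) and 0 lower (4) than PCT. The median of the 18 brighter members was then -0.01 for PICT minus PCT (-0.70 after scaling) and 0.69 for OMCT minus PCT (-0.02). That near-zero median was also above 0 with log2 first (0.07), quantile normalization (0.04) and a trimmed mean (0.05). With the brighter array at or above percentile 75, 5 members were lower in PICT than in OMCT (9), 0 higher in PICT than in PCT (1), and OMCT had 3 higher (5) and 2 lower (4) than PCT; fewer genes can pass this filter. Wnt2b also dropped out, leaving 0 higher, with a pseudocount at the median. Sfrp1 in PICT minus PCT, at -1.06, fell under 2-fold as deposited (-0.35), with quantile normalization (-0.90) and with the mean over probe sets (-0.87). Why PCT was dimmer as deposited was not tested. Signal over background limits Wnt8b, Frzb, Rspo3 and Wnt2, which did not exceed the highest negative control on at least 1 array.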

Other observations

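Genes listed under planar polarity, a branch that uses Frizzled receptors without beta-catenin, split between the comparisons. The list does not mean that each gene acts in that branch only. Of 13 measured, 3 were lower in PICT than in OMCT and 1 was higher, where 4.38% and 4.04% of all genes were. In PICT minus PCT 3 were lower and 0 higher, where 3.94% and 3.64% of all genes were. In OMCT minus PCT 1 was higher and 3 lower, where 5.3% and 5.41% of all genes were. Dact1, an intracellular partner of Dishevelled, had an intensity of 44.9 in PICT, 124.4 in OMCT and 142.8 in PCT, with differences of -1.31 against OMCT and -1.50 against PCT. Daam2, a formin, had 45.9 in PICT, 133.6 in OMCT and 101.9 in PCT, with differences of -1.38 and -1.02. Vangl2, a core polarity protein of epithelia, had 105.0 in PICT, 65.2 in OMCT and 221 in PCT, with PICT minus PCT at -1.01 and OMCT minus PCT at -1.63. Prickle1 had 684 in PICT, 828 in OMCT and 358 in PCT, and was higher in OMCT than in PCT by 1.19. After median scaling Dact1 and Daam2 were thus low in PICT alone, like Fzd4 and Sfrp2. Vangl2 was high in PCT, like Wnt4 and the brighter Fzd5 probe set. For Dact1, Daam2 and Vangl2 no values as deposited are given, and comparisons with PCT depended on scaling. Daam2, Vangl2 and Prickle1 were chosen after their values were seen.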
